A study of Mus musculus with 24 samples.

Results

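The sarcomere is the contractile unit of the heart muscle cell, and the Z-disc is the protein lattice that anchors its thin filaments at each end. The 40 genes described here encode troponin and thin filament proteins, myosin light chains, titin and M-band proteins, Z-disc proteins, intermediate filaments, four-and-a-half LIM (FHL) proteins and a few regulators of protein turnover. They were chosen by name, and all 40 were found among the 21878 genes of the count table. Of these, 39 passed the expression filter with 13501 genes in all, and Myl7 did not.

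The libraries were made from poly(A) RNA of hearts of ovariectomised (OVX) mice, taken 3 weeks after myocardial infarction (MI). Every mouse had received the viral vector AAV9, either empty or made to overexpress miR-21, and some had trained by swimming before the infarction. MEC names the empty vector without swimming (6 libraries), MES the empty vector with swimming (6), MOC the miR-21 vector without swimming (6) and MOS the miR-21 vector with swimming (5). All groups therefore share the ovariectomy, the infarction and a vector. There was no group without infarction, and the labels give no promoter for the miR-21 insert, no strain and no age. They name the heart as the tissue and do not say which chamber or which side of the infarct was taken, nor that each library is 1 mouse. P-values therefore measure the spread between these samples.

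In a sarcomere, titin runs from the Z-disc to the M-band as a spring, myosin thick filaments slide along actin thin filaments, and troponin makes that movement depend on calcium. At the Z-disc, alpha-actinin crosslinks the actin ends, and a shell of LIM, PDZ and actin-binding proteins links the lattice to the membrane and to signalling. Several of these shell proteins are known to respond to mechanical load, and F-box and RING proteins mark worn sarcomere proteins for degradation.

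miR-21 was the agent of the study, so its mature sequence and its only match among the tested members are shown first. Capitals mark the seed, bases 2 to 8, and the site that pairs with it. miR-21 itself was not analysed here, since these libraries count messenger RNA.
mmu-miR-21a-5p: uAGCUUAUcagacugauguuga
Nebl 3' UTR site: atgcttttgctATAAGCTtttgtagtaga
The microRNA lies on the minus strand at chr11:86584120-86584141 (RefSeq, GRCm38.p6). The 7-base site ATAAGCT was in the 3' untranslated region of 1 of the 39 tested members, or 2.56%, against 1013 of 12969 tested genes, or 7.81% (GENCODE M21 transcripts). That member is Nebl, which encodes nebulette, a thin filament protein of the Z-disc, and the site starts at base 2911 of its 4785-base 3' UTR. Nebl was 0.19 ± 0.10 (SE) higher in log2 in MOC than in MEC (adjusted p = 0.226) and 0.02 ± 0.11 lower in MOS than in MES, a fold of 0.988, so its values did not pass the test in either comparison.

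Upstream sequences of 4 members that changed in at least 1 comparison, those with the smallest p among the members with a listed promoter, are shown because muscle promoters are known for a small set of motifs. Each is the 250 bases before the most upstream listed start, 5' to 3' on the gene's strand, with motifs in capitals.
Fbxl22: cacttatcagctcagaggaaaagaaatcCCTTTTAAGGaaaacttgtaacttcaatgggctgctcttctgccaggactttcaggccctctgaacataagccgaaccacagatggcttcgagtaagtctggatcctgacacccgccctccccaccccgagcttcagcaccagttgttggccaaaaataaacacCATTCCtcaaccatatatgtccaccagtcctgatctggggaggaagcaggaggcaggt
Flnc: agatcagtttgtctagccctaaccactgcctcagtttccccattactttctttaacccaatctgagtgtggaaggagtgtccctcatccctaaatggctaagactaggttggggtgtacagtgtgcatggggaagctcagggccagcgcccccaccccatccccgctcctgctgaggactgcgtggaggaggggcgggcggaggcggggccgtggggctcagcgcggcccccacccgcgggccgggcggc
Fhl1: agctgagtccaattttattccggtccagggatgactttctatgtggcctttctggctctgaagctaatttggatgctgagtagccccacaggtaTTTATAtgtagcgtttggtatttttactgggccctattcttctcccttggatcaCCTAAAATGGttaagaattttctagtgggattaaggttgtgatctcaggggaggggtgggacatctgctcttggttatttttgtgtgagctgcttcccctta
Pdlim3: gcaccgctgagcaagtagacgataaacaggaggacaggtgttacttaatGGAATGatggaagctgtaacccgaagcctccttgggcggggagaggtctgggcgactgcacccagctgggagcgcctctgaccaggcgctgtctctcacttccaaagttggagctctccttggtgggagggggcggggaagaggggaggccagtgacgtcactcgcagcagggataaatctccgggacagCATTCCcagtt
The Fbxl22 window (chr9:66514594-66514843, minus strand) held a CArG box, the motif of serum response factor, and an MCAT motif, CATTCC. The Flnc window (chr6:29432903-29433152, plus strand) held none of the motifs searched, while the window of the next Flnc start held CATTCC. The Fhl1 window (chrX:56779433-56779682, plus strand) held TATAAA on the other strand and a CArG box. The Pdlim3 window (chr8:45885237-45885486, plus strand) held CATTCC once on each strand. RefSeq promoters on GRCm38.p6 were listed for 35 of the 40 members, with 48 starts, and both strands were searched for 6 motifs. Xirp1, Synpo, Nexn, Tcap and Myom2 were not among them. CArG boxes were in 20.8% of the members' windows and in 1.47% of the 32851 windows in the table. MEF2 motifs were in 14.6% against 1.69%, and CATTCC in 25% against 12.6%. The GATA motif AGATAA was in 16.7% against 9.99%, TATAAA in 14.6% against 12.4%, and the FOXO motif TGTTTAC in 4.17% against 3.17%. A match describes the letters of a window and is not a binding site.

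Levels were compared between genes on the FPKM scale, which the authors deposited and which divides by length. Myl2, the ventricular regulatory light chain, was the highest of the 40, with a median of 9727 FPKM over 23 libraries. Tnnt2, cardiac troponin T, followed at 6662, then Myl3, the ventricular essential light chain, at 6239. Troponin C (Tnnc1) had 4527 FPKM and troponin I (Tnni3) 4211, with overlapping ranges of 3050 to 5153 and 2214 to 5264. Tcap, telethonin, which caps the Z-disc end of titin, was the highest Z-disc gene at 2442. Titin itself (Ttn) ranked 29th at 42.0 FPKM, with a range of 31.7 to 48.1, although its count share placed it among the most read members at a median of 4618 CPM (counts scaled to library size). The lowest ranks held Tmod4, a tropomodulin of skeletal muscle, at 4.24, the intermediate filament gene Synm at 1.98, Myl4 at 1.87, Myom3 at 0.922 and Myl7 at 0.126. The members together took 5.43% to 7.58% of each library's counts.

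**Figure D1:**
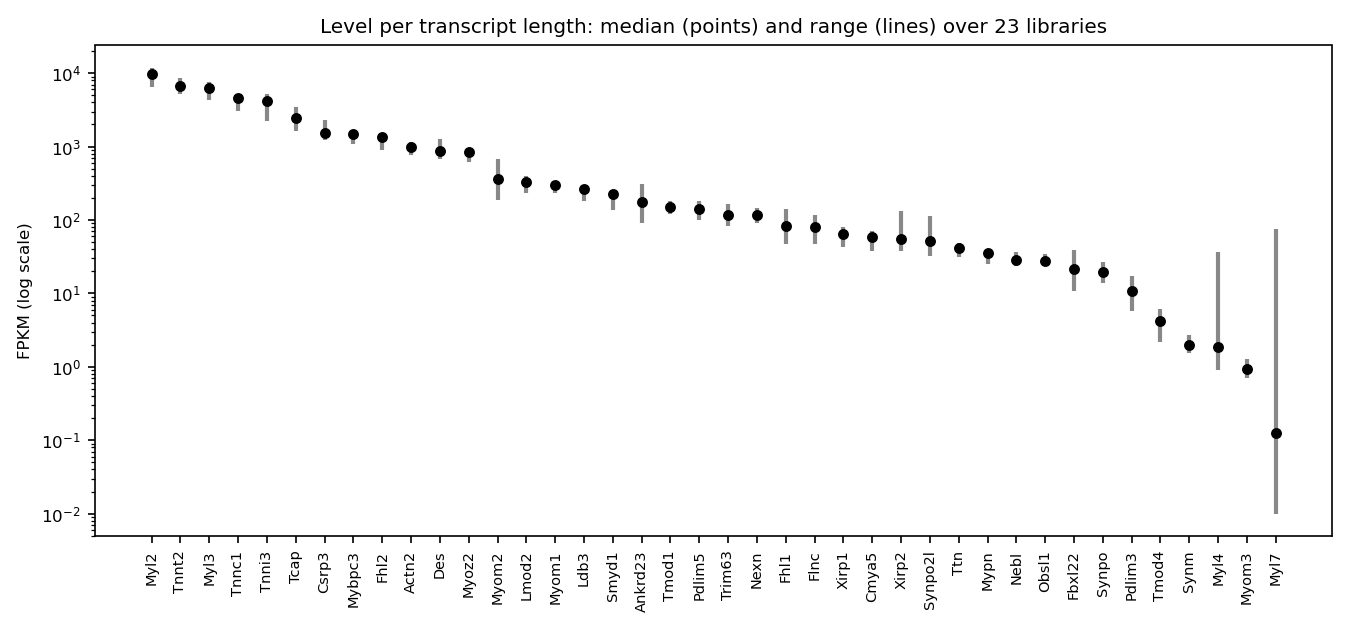
Deposited FPKM of the 40 members on a log scale (vertical axis), with the genes ordered by median (horizontal axis). Points are medians and lines the range over 23 libraries, drawn from 0.01 where a library is at 0; contractile filament genes lead from Myl2 at 9727, and the atrial light chains Myl4 and Myl7 have the widest ranges.

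Library totals ran from 12744241 to 14657630 counts. Ventricular muscle genes were abundant in every library, with Myl2 at 5397 CPM or more. The genes listed for atrial muscle differed from each other. In the 6 MES libraries Sln was at 0, while Kcnj3 was at 66.5 to 101 CPM and Dkk3 at 7.19 to 17.7. Myh4, a myosin of skeletal muscle, was at most 0.844 CPM. In 3 libraries fat cell genes were far above the rest: Cfd was at 148 CPM in MEC replicate 2, 114 in MEC replicate 5 and 147 in MOS replicate 2, and at most 8.47 elsewhere. They also had the highest summed levels of scar fibroblast genes, at 9672, 7747 and 7224 CPM, with MEC replicate 4 next at 7025. Their macrophage genes were the highest too, at 709, 570 and 760 CPM. Fits without these 3 libraries therefore also leave out scar-rich and macrophage-rich libraries. In the same 3 libraries the members ran low. All 39 tested members were below their group's median in MEC replicate 2, 33 in MEC replicate 5 and 31 in MOS replicate 2, with median deviations of -0.39, -0.30 and -0.52 in log2. MES replicate 2 and MOC replicate 6, which were not high in fat cell genes, also had 35 and 32 members below, with median deviations of -0.15 and -0.13. In bulk RNA fewer muscle cells and less RNA per cell cannot be told apart. The number of changed members in each comparison is also given without the 3 libraries, an alternative chosen after seeing the data. The pooled within-group SD of the members had a median of 0.222 log2 units, against 0.192 over all genes tested. It was lowest for Synpo at 0.122 and highest for Myl4 at 1.21.

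**Figure D2:**
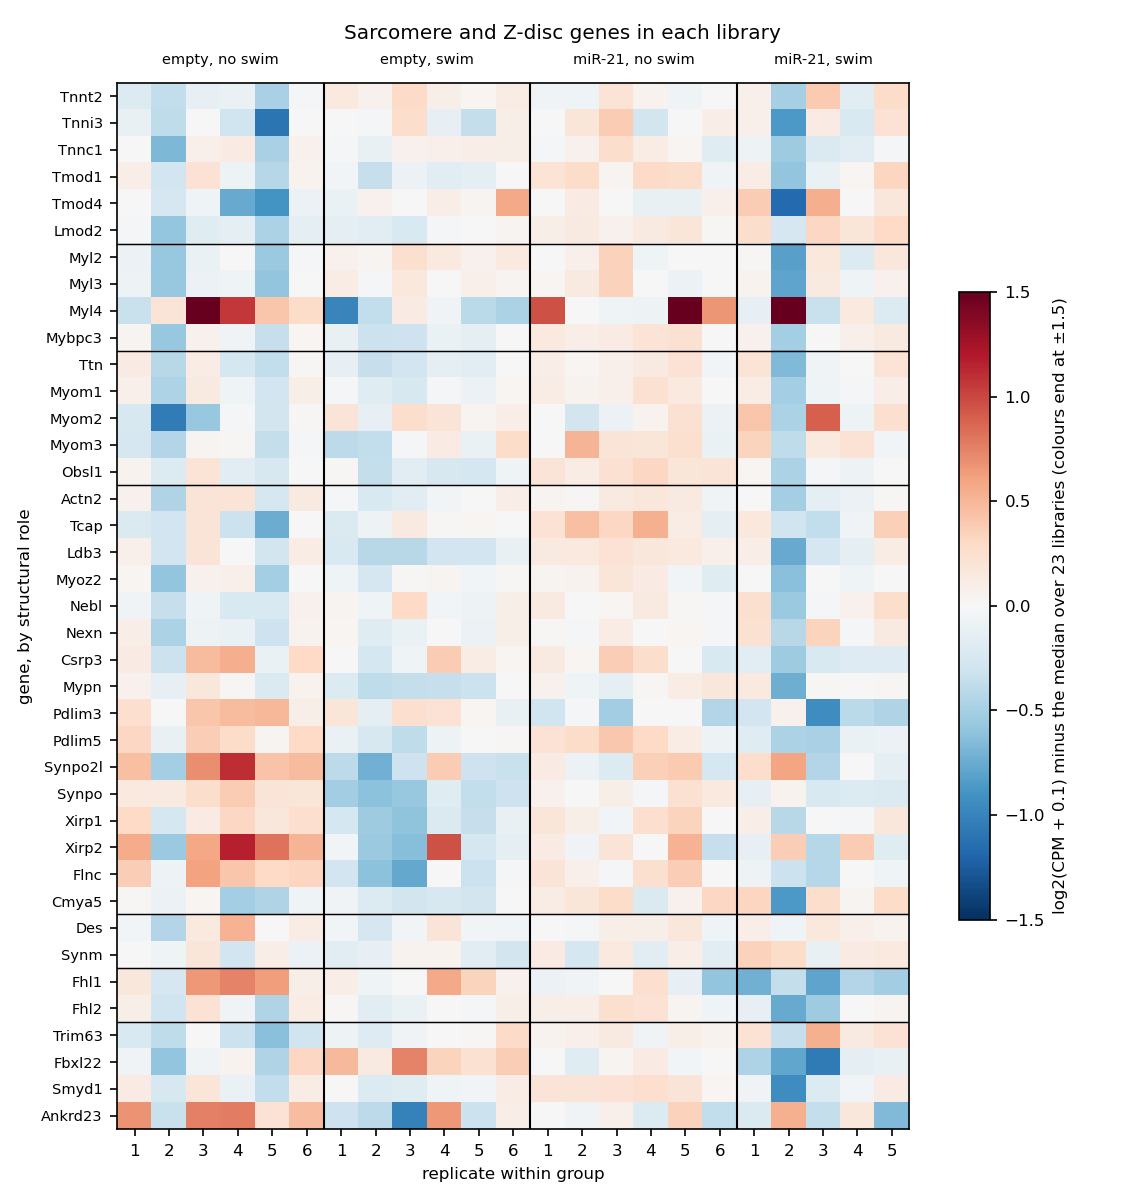
Each cell is log2(CPM + 0.1) of 1 of the 39 tested members (rows, by structural role) in 1 of 23 libraries (columns, by group and replicate), minus that gene's median over all libraries; colours end at ±1.5. MEC replicates 2 and 5 and MOS replicate 2 are blue for most rows, and MES is blue for the Z-disc genes Synpo, Xirp1 and Flnc.

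The comparison of MES with MEC asked what prior swimming did under the empty vector. A group of actin-binding Z-disc genes was lower after swimming: Synpo, Flnc, Xirp1 and Synpo2l fell by 0.49 to 0.76 log2 units, and the F-box gene Fbxl22 rose by 0.50. Of the 39 members tested, 5 changed, 1 up and 4 down. Across all 13501 genes 7.46% changed, 4.18% up and 3.28% down. All 4 members that fell belong to the 16 Z-disc genes, whose median log2 change was -0.24, with 12 of 16 negative. The median over all genes tested was -0.005 and over the 39 members -0.04.

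Synpo encodes synaptopodin, an actin-associated protein known from podocytes and dendritic spines as well as muscle. It was at 187 to 221 CPM in MEC (median 193), 111 to 149 in MES (124) and 168 to 199 in MOC (179). The 5 MOS libraries had 155, 176, 145, 147 and 146. Every MES library was below every MEC library, and the MOS libraries lay between those groups except for MOS replicates 3, 4 and 5, which reached into the top of MES. The change in MES against MEC was -0.64 ± 0.07 (SE), a fold of 0.641, with adjusted p = 2.7e-05.

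Flnc, filamin C, crosslinks actin at the Z-disc and the intercalated disc. Its levels were 684 to 1097 CPM in MEC (median 912), 422 to 725 in MES (584) and 714 to 930 in MOC (791). In MOS they were 682, 576, 537, 720 and 689. MES overlapped MEC through MEC replicate 2, the lowest of its group, and the log2 change was -0.64 ± 0.13 with adjusted p = 0.00403. Xirp1, an actin-binding repeat protein of the intercalated disc that binds filamin C, was at 311 to 463 CPM in MEC (434), 246 to 348 in MES (304) and 363 to 472 in MOC (412), and at 400, 281, 374, 370 and 422 in MOS. Here too only MEC replicate 2 reached into the MES range, and the log2 change was -0.49 ± 0.11 with adjusted p = 0.00802.

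Synpo2l, a cytoskeletal protein of the Z-disc related to synaptopodin, varied more. It was at 199 to 610 CPM in MEC (median 390), 171 to 368 in MES (226) and 236 to 373 in MOC (287), and at 340, 427, 209, 283 and 256 in MOS. MES replicate 4 stood above the other MES libraries and MEC replicate 2 below the other MEC libraries, so the groups overlapped. The log2 change was -0.76 ± 0.22 with adjusted p = 0.0372. That call was kept in 14 of the 23 fits that left out 1 library, and lost without MEC replicates 3, 4, 5 or 6 or MES replicates 1, 2, 3, 5 or 6, where adjusted p reached 0.101.

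Fbxl22 encodes an F-box protein of a ubiquitin ligase, known in heart muscle for the turnover of alpha-actinin and filamin C. It was at 59.3 to 111 CPM in MEC (median 86.3), 98 to 150 in MES (114) and 79.0 to 97.4 in MOC (89.8). The MOS libraries had 64.7, 52.2, 43.0, 80.7 and 83.0. MES lay high and MOS low, and MEC met MES only through its highest library. The rise in MES against MEC was 0.50 ± 0.15 with adjusted p = 0.0477, a call kept in 6 of 23 fits that left out 1 library, with adjusted p up to 0.118 without MEC replicate 5.

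**Figure D3:**
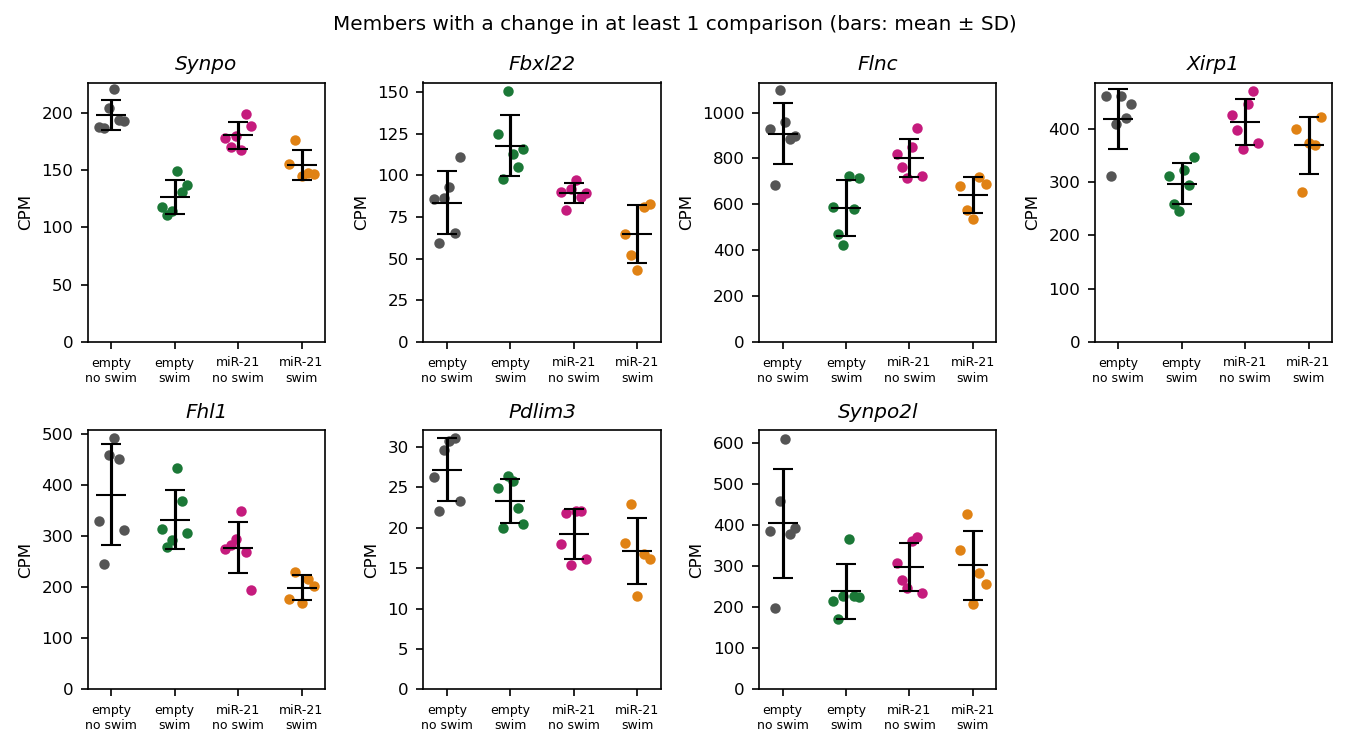
CPM (vertical axis, from 0) of the 7 members that changed in at least 1 comparison, by group (horizontal axis). Points are libraries and bars the mean ± SD; Synpo is lower in all 6 MES libraries than in any MEC library, and Fbxl22 and Fhl1 are lower in all 5 MOS libraries than in any MES library.

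No thin filament, thick filament or titin and M-band gene changed in this comparison by edgeR with all libraries. DESeq2, limma voom and the fit of these 2 groups alone called Tnnt2 higher. Tnnt2, Myl2 and Tmod4 were called higher with the mean level of other cardiomyocyte genes as a covariate, and also without MOS replicate 2. Obsl1, a titin-binding M-band protein, was called lower with that covariate and with a scar gene covariate. The 6 thin filament genes had a median of 0.21, with 5 of 6 positive, and of 0.06 without the 3 libraries high in fat cell genes. Tnnt2 was at 6294 to 8647 CPM in MEC (median 7876), 8986 to 10761 in MES (9432) and 8395 to 10108 in MOC (8631), and at 9279, 6215, 11565, 7912 and 10681 in MOS. MES did not overlap MEC, but the log2 difference of 0.33 ± 0.12 had adjusted p = 0.0948. Myl2 was at 6413 to 9435 in MEC (8907), 9789 to 11253 in MES (10238), 9125 to 12108 in MOC (9495), and 9595, 5397, 10576, 8280 and 10717 in MOS. MES again did not overlap MEC, with a difference of 0.32 ± 0.14 and adjusted p = 0.162. MEC replicates 2 and 5 and MOS replicate 2 held the lowest Myl2 levels of their groups, and without them the difference was 0.17 ± 0.08 with adjusted p = 0.168.

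Ttn was at 3463 to 5030 CPM in MEC (median 4250), 3638 to 4618 in MES (4140), 4489 to 5347 in MOC (4914), and 5309, 2913, 4434, 4630 and 5304 in MOS. Its log2 difference between MES and MEC was -0.06 ± 0.13 with adjusted p = 0.824. Actn2, alpha-actinin 2, was at 2187 to 3428 in MEC (3206), 2556 to 3216 in MES (2921), 2883 to 3362 in MOC (3182), and 2991, 2103, 2698, 2822 and 3023 in MOS. Des, desmin, the intermediate filament around the Z-disc, was at 1984 to 3866 in MEC (2802), 2267 to 3098 in MES (2624), 2589 to 3033 in MOC (2779), and 2893, 2585, 3007, 2847 and 2804 in MOS. For these 3 genes the ranges of all 4 groups overlapped, and none passed the edgeR test in any comparison with all libraries, while limma voom called Ttn higher in MOS than in MES.

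Without the 3 libraries high in fat cell genes, 10 members fell in MES against MEC and none rose, beside 5.55% of all genes that fell and 6.06% that rose. The 10 were Synpo, Flnc, Xirp1, Synpo2l, Ldb3, Pdlim5, Mypn, Actn2, Ankrd23 and Myl4, of which 8 are Z-disc genes. Ldb3, the PDZ-LIM protein ZASP, had a log2 change of -0.39 ± 0.07 (adjusted p = 0.00143), against -0.27 ± 0.12 (0.159) with all libraries. Pdlim5, another PDZ-LIM protein, had -0.44 ± 0.09 (0.00239), against -0.33 ± 0.10 (0.0515). Mypn, myopalladin, which links nebulette and alpha-actinin, had -0.34 ± 0.07 (0.00297), against -0.26 ± 0.11 (0.139). Ankrd23, an ankyrin repeat protein that binds titin, had -0.80 ± 0.23 (0.0344), against -0.60 ± 0.24 (0.129). The rise of Fbxl22 was then 0.32 ± 0.14 with adjusted p = 0.16. Leaving out MOS replicate 2 alone gave 13 changed members, 5 up and 8 down, beside 14.2% of all genes. The 5 were Fbxl22, Myl2, Tmod4, Tnnt2 and Trim63, and Myl4 was among the 8.

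The sample titles carry a lower and a higher number series, and the labels do not say what they mark. All MEC and MOC libraries and MOS replicates 1 and 2 are in the lower series, and all MES libraries and MOS replicates 3 to 5 in the higher one, so only MOS holds both. A term for the series therefore rests only on MOS replicates 1 and 2 against 3 to 5. MOS replicate 2 is also 1 of the 3 libraries in which the members ran low. With that term, none of the 39 members changed in MES against MEC, beside 1.21% of all genes. Synpo then had -0.46 (adjusted p = 0.0983), Flnc -0.69 (0.204), Xirp1 -0.69 (0.114), Synpo2l -0.14 (0.902) and Fbxl22 0.26 (0.726). Flnc and Xirp1 lost their calls although their differences were larger in size than without the term. Within MES against MEC alone, swimming and the number series cannot be told apart.

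Markers of other cells moved as well in this comparison. Of 6 endothelial genes 2 rose, with a median of 0.18, and their summed level was 1613 to 1995 CPM in MEC and 1947 to 2340 in MES. Of 13 scar fibroblast genes 2 fell, with a median of -0.96 and a summed level of 2536 to 9672 in MEC and 1739 to 4613 in MES. Of 7 smooth muscle genes, a cell type that also expresses several actin-binding members, 1 rose and none fell, with a summed level of 573 to 705 in MEC and 595 to 837 in MES. The 5 cardiac stress genes were all negative with a median of -1.06, and none passed the test. With the mean level of the scar genes as a covariate 7 members fell and 0 rose, beside 9.49% of all genes. Synpo, Flnc and Xirp1 kept their calls, while Synpo2l had -0.56 (adjusted p = 0.132) and Fbxl22 0.38 (0.171). With that of the other cardiomyocyte genes 13 members changed, 5 up and 8 down, beside 14.9% of all genes, and no call was lost. The part of these cells in the members' changes was not tested otherwise.

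The comparison of MOC with MEC asked what the miR-21 vector did without swimming. Only Pdlim3 changed among the 39 members by edgeR with all libraries, and it fell. Across all genes 2.25% changed, while the members' median was 0.17 with 27 of 39 positive, beside -0.005 over all genes tested. Without the 3 libraries high in fat cell genes the members' median was 0.02, and 2 members changed, Lmod2 up and Pdlim3 down, beside 5.76% of all genes. Pdlim3 encodes the actinin-associated LIM protein of the Z-disc. It was at 22.1 to 31.1 CPM in MEC (median 27.9), 20 to 26.4 in MES (23.7) and 15.4 to 22.1 in MOC (19.9), and at 18.1, 23, 11.6, 16.7 and 16.2 in MOS. MOC lay below MEC except where 2 of its libraries met MEC replicate 2. The log2 change was -0.50 ± 0.13 with adjusted p = 0.0492, and -0.51 ± 0.12 (0.0223) without the 3 libraries. It was kept in 5 of 23 fits that left out 1 library, those without MEC replicates 1 or 6 or MOS replicates 2, 3 or 5, and adjusted p reached 0.153 without MEC replicate 5.

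All 6 thin filament genes and all 5 titin and M-band genes were positive in MOC against MEC, with medians of 0.27 and 0.25, and none passed the edgeR test with all libraries. Without the 3 libraries the medians were 0.15 and 0.17. DESeq2 and the fit of these 2 groups alone called Lmod2 and Obsl1 higher, and limma voom and the fit with the number series called Lmod2 higher. Lmod2, leiomodin, which lengthens thin filaments, was at 434 to 637 CPM in MEC (median 578) and 654 to 735 in MOC (699). These ranges did not overlap, and the log2 difference was 0.35 ± 0.10 with adjusted p = 0.0518, and 0.23 ± 0.06 (0.0292) without the 3 libraries. Tcap was at 1396 to 2676 in MEC (1969), 2019 to 2563 in MES (2353), 2138 to 3380 in MOC (2819), and 2605, 1900, 1816, 2257 and 2995 in MOS. Its difference between MOC and MEC was 0.47 ± 0.14 with adjusted p = 0.0659, and 0.34 ± 0.13 (0.125) without the 3 libraries. DESeq2, limma voom and the fit of these 2 groups alone called Tcap higher. Trim63, the RING ubiquitin ligase MuRF1, was at 141 to 217 in MEC (175), 190 to 265 in MES (214), 209 to 237 in MOC (228), and 252, 171, 315, 238 and 252 in MOS. Its difference was 0.36 ± 0.11 with adjusted p = 0.0662, and 0.27 ± 0.09 (0.0607) without the 3 libraries. DESeq2, limma voom, the fit of these 2 groups alone and the fit with the number series called Trim63 higher.

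Values outside the sarcomere moved in the same comparison. All 19 other cardiomyocyte genes were positive, with a median of 0.31, and all 13 scar fibroblast genes negative, with a median of -1.74 and 2 passing the test. The scar genes summed to 2536 to 9672 CPM in MEC and 1357 to 2221 in MOC. Of 7 smooth muscle genes 3 fell, Tagln, Cnn1 and Mylk, with a summed level of 573 to 705 in MEC and 477 to 678 in MOC. With the cardiomyocyte score or the scar score as a covariate no member changed in MOC against MEC, beside 0.0518% and 0% of all genes, and the members' median became -0.06 and -0.10. The part of these cells in the fall of Pdlim3 was not tested otherwise. Without MOS replicate 2 the count of changed members was 9, with 7 up and 2 down, beside 21.3% of all genes.

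The comparison of MOS with MES asked what the miR-21 vector did in hearts of swimming mice. Fbxl22 and Fhl1 were lower with the miR-21 vector and Synpo was higher, so 3 of 39 members changed, 1 up and 2 down. Across all genes 4.58% changed, 1.87% up and 2.71% down, and the members' median was 0.08 beside 0.02. Fbxl22, with the values given above, did not overlap between the groups: the highest MOS library had 83.0 CPM and the lowest MES library 98. Its log2 change was -0.87 ± 0.16, a fold of 0.549, with adjusted p = 0.00378.

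Fhl1 encodes an FHL protein that binds the spring region of titin. It was at 246 to 491 CPM in MEC (median 390), 280 to 433 in MES (310) and 195 to 349 in MOC (279). The MOS libraries had 178, 229, 170, 216 and 203. All 5 MOS libraries were below all 6 MES libraries, and MOC overlapped both. The log2 change in MOS against MES was -0.74 ± 0.16, a fold of 0.600, with adjusted p = 0.0125. Both falls were kept in all 34 alternatives, with adjusted p up to 0.0338 for Fbxl22 and 0.0382 for Fhl1. With the term for the title number series Fbxl22 had -0.77 (0.0206) and Fhl1 -0.76 (0.0287). The paralogue Fhl2 had a log2 difference of -0.22 ± 0.13 with adjusted p = 0.38.

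The rise of Synpo in MOS against MES was 0.28 ± 0.08 with adjusted p = 0.0355. It was kept in 24 of 34 alternatives and lost without MES replicates 1, 2, 3 or 5 or MOS replicates 1, 4 or 5, where adjusted p reached 0.09. It was also lost with the number series, at 0.21 (0.176). MES is the shared group of this comparison and of MES against MEC, so the fall of Synpo in one and its rise in the other both rest on the same 6 MES libraries. The same holds for Fbxl22, which rose in MES against MEC and fell in MOS against MES, and its interaction also uses MES.

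Without the 3 libraries high in fat cell genes, 10 members rose and 3 fell in MOS against MES, beside 8.69% of all genes up and 8.62% down. MOS replicate 2 is the only library of these 2 groups that drops out, and 20 members lay more than 0.5 log2 units below the group's median in it. The 10 that rose were Cmya5, Ldb3, Lmod2, Mybpc3, Mypn, Nexn, Synpo, Trim63, Ttn and Xirp1, and Pdlim3 joined Fbxl22 and Fhl1 among those that fell. Ttn then had 0.27 ± 0.08 (adjusted p = 0.0236), against 0.14 ± 0.13 (0.589) with all libraries. Cmya5, myospryn, which binds alpha-actinin, had 0.41 ± 0.10 (0.00763), against 0.24 ± 0.16 (0.413). Lmod2 had 0.36 ± 0.06 (0.000335), against 0.26 ± 0.10 (0.141). Mybpc3, cardiac myosin-binding protein C, had 0.24 ± 0.07 (0.0156), against 0.13 ± 0.12 (0.588). Leaving out MOS replicate 2 alone gave 8 changed members, beside 13.8% of all genes.

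Endothelial markers fell in MOS against MES, with 4 of 6 passing the test and a median of -0.35, and their summed level was 1947 to 2340 CPM in MES and 1594 to 1774 in MOS. Of 6 mesothelial markers 5 were positive and 4 passed the test. Their summed level was 7.88 to 13.8 in MES (median 10.6) and 5.19 to 188 in MOS (median 6.76), the highest being MOS replicate 2. Smooth muscle markers had a median of -0.02 and none passed the test. The part of these cells in the falls of Fhl1 and Fbxl22 was not tested.

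**Figure D4:**
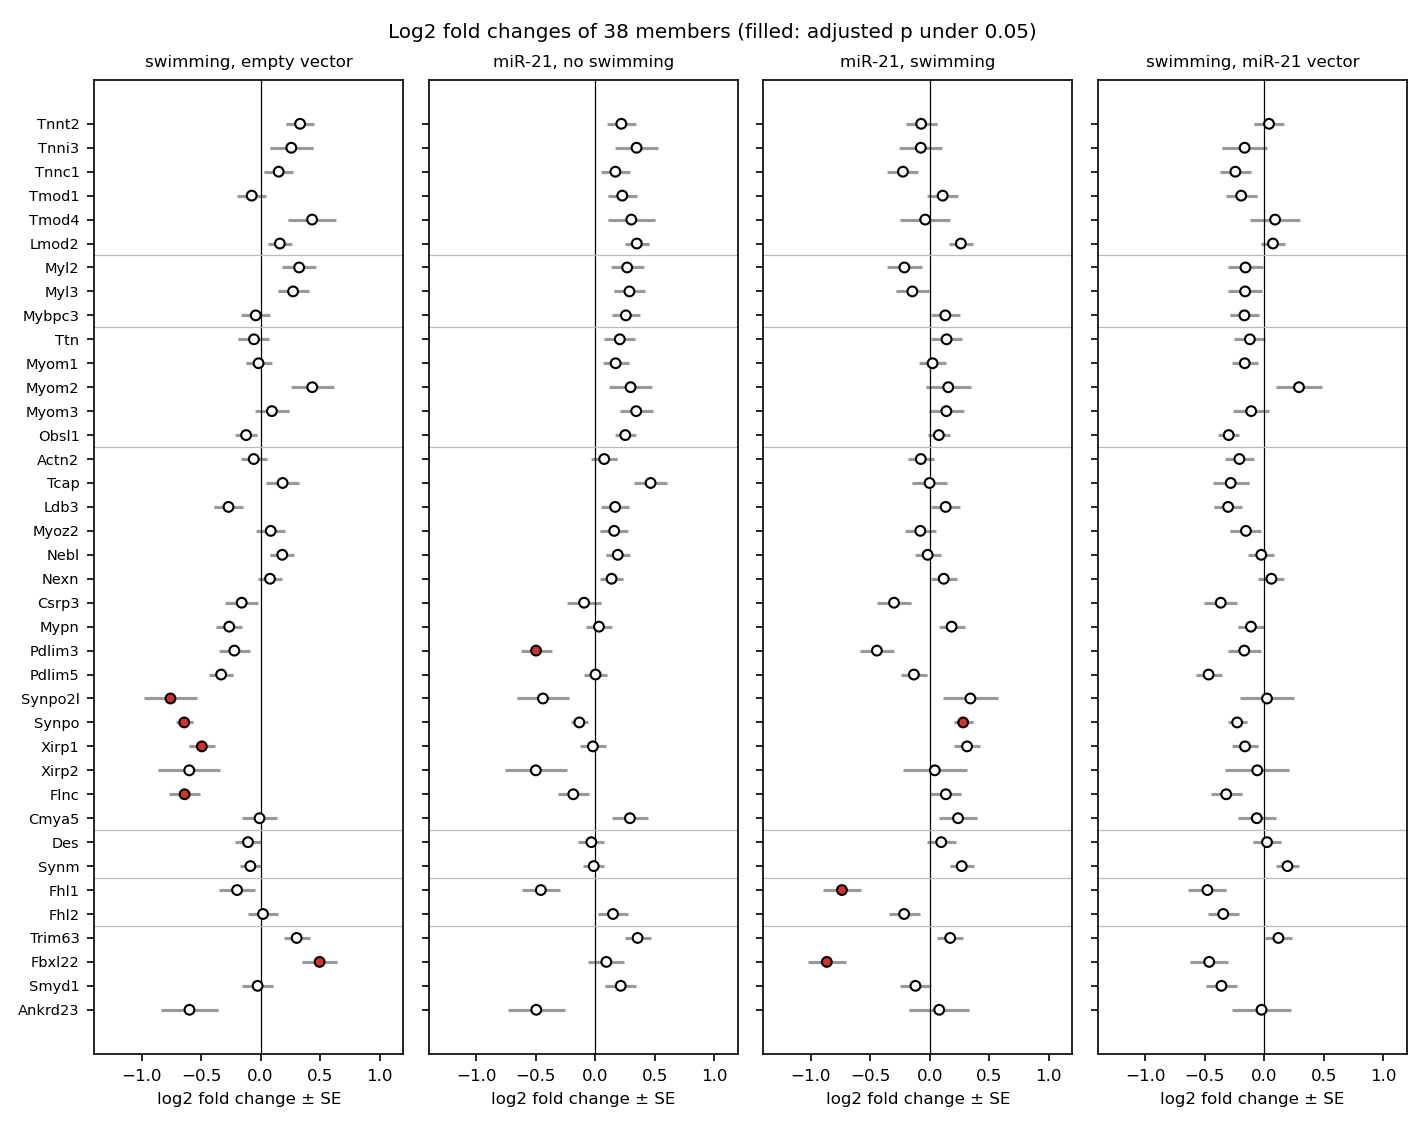
Log2 fold changes ± SE (horizontal axis) of 38 members (vertical axis, by structural role) in the 4 comparisons of groups, with Myl4 left off for its scale. Filled points have adjusted p under 0.05; they are Synpo2l, Synpo, Xirp1, Flnc and Fbxl22 for swimming under the empty vector, Pdlim3 for miR-21 without swimming, and Synpo, Fhl1 and Fbxl22 for miR-21 with swimming.

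The comparison of MOS with MOC asked what swimming did under the miR-21 vector. None of the 39 members changed by edgeR, beside 0.17% of all genes. At an unadjusted p under 0.05 there were 10 members, beside 18.8% of all genes. DESeq2 called 2, beside 2.8%, and limma voom 3, beside 2.21%. With the term for the number series 3 members were lower, Obsl1, Pdlim5 and Smyd1, beside 7.97% of all genes, and the members' median was -0.28. With all libraries and without that term the members' median was -0.16 with 29 of 39 negative, against 0.03 over all genes. It was -0.075 without the 3 libraries high in fat cell genes and -0.072 without MOS replicate 2 alone. The other cardiomyocyte genes had a median of -0.20 with all libraries, with 19 of 19 negative. Pdlim5 was nearest to the threshold. It was at 949 to 1329 CPM in MEC (median 1259), 792 to 1040 in MES (970), 973 to 1365 in MOC (1218), and 906, 741, 736, 958 and 969 in MOS. Every MOS library was below every MOC library, with a log2 difference of -0.47 ± 0.11 and adjusted p = 0.0664. Obsl1, which binds titin at the M-band, did not overlap either, at 203 to 232 CPM in MOC and 192, 135, 185, 177 and 189 in MOS, with -0.30 ± 0.09 and adjusted p = 0.112. Without the 3 libraries only Pdlim5 changed, at -0.42 ± 0.09 (0.0418), beside 1% of all genes.

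The interaction asked whether swimming went with a different change under each vector. Fbxl22 was the single member of 39 that passed, beside 0.541% of all genes. Swimming went with 0.50 ± 0.15 under the empty vector and with -0.46 ± 0.16 under the miR-21 vector, and the difference was -0.96 ± 0.22 with adjusted p = 0.0467. This call was kept in 9 of 33 alternatives. It was kept in 6 of the 23 fits that left out 1 library, those without MEC replicates 3 or 6 or MOS replicates 1, 3, 4 or 5, and adjusted p reached 0.103 without MEC replicate 5. Without the 3 libraries it was -0.71 ± 0.20 with adjusted p = 0.117, and no member passed, beside 0.396% of all genes. Synpo had 0.41 ± 0.11 with adjusted p = 0.0574, and Synpo2l 0.78 ± 0.31 with adjusted p = 0.164. All 6 thin filament genes and all 5 titin and M-band genes were negative, with medians of -0.32 and -0.15, and of -0.05 and 0.08 without the 3 libraries. The other cardiomyocyte genes were negative in 19 of 19 with a median of -0.25.

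Myl4 and Myl7 encode the essential and regulatory light chains of atrial myosin, and they behaved unlike any other member. Myl7 was at 45.8 CPM in MEC replicate 3, 22.7 in MOS replicate 2, 6.47 in MOC replicate 5 and 1.84 in MOC replicate 1, and at most 0.387 elsewhere. Myl4 was at 46.7, 26.9, 9.96 and 4.72 in the same 4 libraries. Its range was 1.15 to 2.60 in MES, and the other MOS libraries had 2.18, 1.87, 2.65 and 2.06. Apart from MEC replicate 4, at 5.05, no other library exceeded 3.84, so high levels stood in single libraries of 3 groups. Sln was at 6.65, 6.65 and 2.42 CPM in MEC replicate 3, MOS replicate 2 and MOC replicate 5, and at most 0.664 elsewhere. Mybphl, a myosin-binding protein of atrial muscle, was at 5.36, 3.59 and 0.996 in those libraries, at 1.26 in MES replicate 3 and at most 0.59 elsewhere. Of the 7 atrial genes listed, 3 were tested. The list summed to 390 to 6794 CPM in MEC, 351 to 2147 in MES, 289 to 2823 in MOC and 569 to 3853 in MOS, most of it Nppa, which infarcted ventricle also expresses.

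Myl4 differed by -2.46 ± 0.86 in log2 between MES and MEC (adjusted p = 0.086), and by -0.75 ± 0.65 (0.511) without MEC replicate 3. Between MOS and MES it differed by 1.94 ± 0.88 (0.223), and by 0.23 ± 0.87 (0.899) without MOS replicate 2. Between MOC and MEC it was -1.29 ± 0.81 (0.282), and 0.42 ± 0.63 (0.665) without MEC replicate 3, a change of sign. The fall of Myl4 in MES that passed the test without the 3 libraries high in fat cell genes, -2.90 ± 0.73 (0.0158), keeps MEC replicate 3 in the fit.

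**Figure D5:**
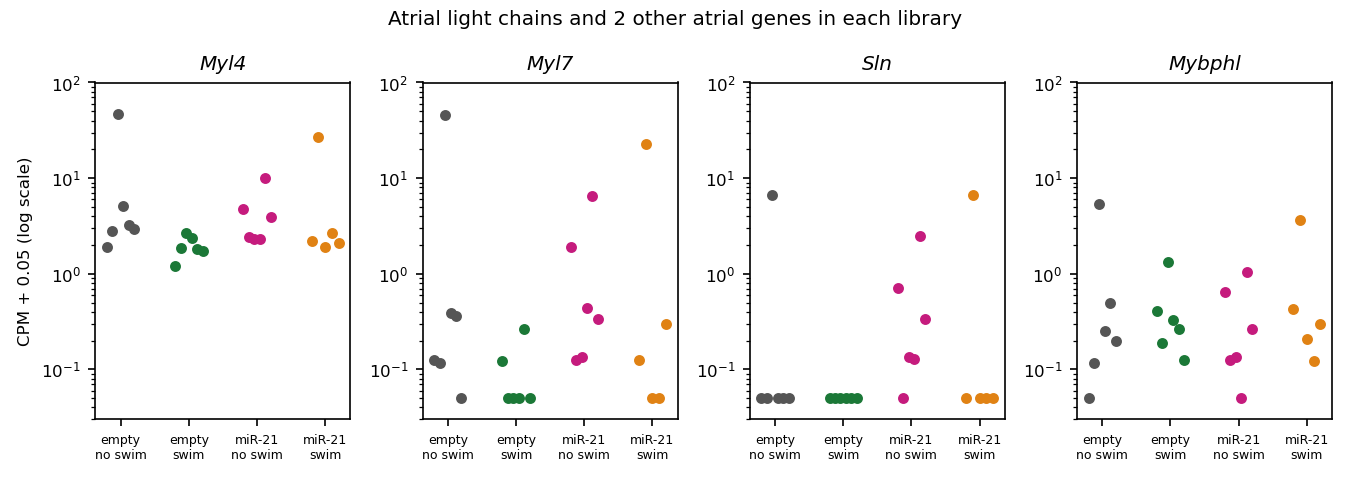
CPM + 0.05 on a log scale (vertical axis) of Myl4, Myl7, Sln and Mybphl in each of 23 libraries (points), by group (horizontal axis). MEC replicate 3 and MOS replicate 2 stand highest for all 4 genes, and no MES library exceeds 2.60 CPM for Myl4.

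After Myl4, the within-group SD was largest for Xirp2 (0.472 log2 units), Ankrd23 (0.436) and Synpo2l (0.402). Ankrd23 and Synpo2l were named above for their place on titin or at the Z-disc. Myom2, an M-band protein, was at 952 to 1987 CPM in MEC (median 1643), 1801 to 2371 in MES (2177), 1632 to 2309 in MOC (1912), and 2621, 1413, 3660, 1868 and 2329 in MOS. MOS replicate 3 was the highest of all, and the difference between MES and MEC was 0.43 ± 0.18 with adjusted p = 0.142. Xirp2, the larger relative of Xirp1, was at 469 to 1554 in MEC (1025), 446 to 1339.6 in MES (607), 546 to 996 in MOC (722), and 635, 891, 514, 902 and 609 in MOS. Its difference between MES and MEC was -0.60 ± 0.26 with adjusted p = 0.163. MES replicate 4 was the highest MES library for Xirp2, Synpo2l and Ankrd23, the last at 674 CPM beside 213 to 461 in the other 5. Nppa, a natriuretic peptide gene that rises with cardiac stress, was at 2063 CPM in that library and at 261 to 723 in the other MES libraries.

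A second list of 40 sarcomere genes, 39 of them tested, gave 3 changed genes in MES against MEC, 1 in MOC against MEC, 3 in MOS against MES and none in MOS against MOC or the interaction. In the same order 7.46%, 2.25%, 4.58%, 0.17% and 0.541% of all genes tested changed. In MES against MEC, Mylk3, the kinase of the cardiac regulatory light chain, rose by 0.41 ± 0.11 (adjusted p = 0.0248) and Lrrc10, a leucine-rich repeat protein of heart muscle, by 0.49 ± 0.15 (0.0453). Synpo2, myopodin, a relative of Synpo and Synpo2l, fell by 0.35 ± 0.10 (0.0358) and was 0.38 ± 0.11 (0.0404) higher in MOS than in MES. Csrp1, a LIM protein found in smooth muscle, had -0.45 ± 0.11 (0.0436) in MOC against MEC. In MOS against MES, Fbxo32, the F-box protein atrogin-1, rose by 0.42 ± 0.12 (0.0391), and Ilk, integrin-linked kinase, had -0.25 ± 0.07 (0.0481).

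The major myosins and actins did not pass the test in any comparison. Myh6, the fast adult myosin heavy chain of the mouse ventricle, differed by 0.04 ± 0.15 between MES and MEC and by 0.28 ± 0.15 between MOC and MEC. Myh7, the slow chain that rises in stressed hearts, differed by -1.06 ± 0.67 between MES and MEC, with 328 to 5739 CPM in MEC and 273 to 3343 in MES. Acta1, skeletal actin, differed by -0.90 ± 0.48 between MES and MEC. Actc1, cardiac actin, had its lowest adjusted p, 0.138, in MOS against MOC, at -0.47 ± 0.16.

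The authors' deposited tables, whose testing tool is not named, called 4 members higher and 4 lower in MES against MEC at an adjusted p under 0.05. Tnnt2, Myl2, Myom2 and Fbxl22 were the higher ones and Pdlim5, Synpo, Xirp1 and Flnc the lower ones, while 4.03% of all their genes were called. For MOC against MEC the authors' deposited table called Lmod2, Obsl1, Tcap and Trim63 higher and Pdlim3 lower, beside 6.3% of genes. For MOS against MES the authors' deposited table called Fhl1 and Fbxl22 lower, beside 0.837%, and for MOS against MOC it called Pdlim5 lower, beside 0.127%.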

How the data were processed

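Poly(A) RNA of mouse hearts was sequenced from TruSeq stranded libraries, per the labels' protocols. The genome build was GRCm39, per the submitters' processing notes, while the sources used here name neither aligner nor counter. The authors deposited raw counts per gene, FPKM values, and 4 comparison tables with log2 fold changes and p-values. The counts carry every test, FPKM rank levels between genes, and the comparison tables are used only where named. Another 46 per-sample columns were not used. Of 24 labelled samples 23 were analysed, and MOS replicate 6 is not analysed here. None of the 253 library pairs held identical counts.

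Counts were filtered with filterByExpr, scaled by trimmed mean of M-values (TMM) and fitted in 1 edgeR quasi-likelihood model of 4 groups. Adjusted p-values are Benjamini-Hochberg over 13501 genes, and changed means under 0.05. CPM values are TMM-scaled. The script was tested on simulated data. Named were all changed members, 1 member for each structural role, the atrial light chains, and the 2 largest differences each way per comparison. Values of Ldb3, Mypn, Lmod2, Cmya5, Mybpc3, Obsl1, Fhl2, Nebl and Ankrd23 fall outside this rule and were chosen after they were seen. Members, lists, tests and this rule were chosen with earlier results of these data known. A list score is the mean over its genes of log2 CPM, each centred over libraries. Protein sequences were not used here. Plots used matplotlib 3.10.9, tables pandas 2.3.3 and numpy 2.4.6 under Python 3.11.15, and fits edgeR 4.0.16, DESeq2 1.42.0 and limma 3.58.1 under R 4.3.3.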

Additional observations from a re-analysis of the deposited data

Results flagged for a closer look

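Of 76 sets of CPM values, 19 named members in each of 4 groups, 11 held a library separated from the rest of its group by an unusually large share of the group's range. A chance rate of about 1 in 20 would need independent sets. These sets share libraries, and their members were chosen with earlier results known, so that rate cannot be compared with the 11. Of the 11 flagged sets, 7 belong to the atrial light chains. Myl4 was at 46.73 CPM in MEC replicate 3, 9.955 in MOC replicate 5 and 26.89 in MOS replicate 2. Myl7 was at 45.8, 6.471 and 22.65 in the same libraries and at 0.2123 in MES replicate 5, which is a few reads.

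The other 4 are single libraries. Xirp1 was lowest in MEC replicate 2, at 311.0 CPM beside a group median of 434. MES replicate 4 was highest for Synpo2l, at 367.5 beside a median of 226, and for Xirp2, at 1339.6 beside 607. Myl2 was highest in MOC replicate 3, at 12108 beside 9495.

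The change of Fbxl22 with swimming was flagged as different between the vectors, with an interaction of -0.96 in log2 (edgeR adjusted p = 0.0467). That call was kept in 9 of 33 alternatives. It was lost with the number series (adjusted p = 0.175) and without the 3 libraries high in fat cell genes (0.117).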

How the results depend on the processing

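No paired analysis was possible because the replicate numbers only follow the order of the samples. The number of changed members (MES against MEC, MOC against MEC, MOS against MES, MOS against MOC, interaction) was 5, 1, 3, 0 and 1. Of all genes tested 7.46%, 2.25%, 4.58%, 0.17% and 0.541% changed. The number of changed members moved by over 1.5 times under these settings. Without the expression filter it was 3 in the first, and 0 in the second and the interaction. DESeq2 gave 6 for MOC against MEC, 2 for MOS against MOC and 2 for the interaction, beside 9.15%, 2.8% and 5.33% of all genes. limma voom gave 10, 4, 12 and 3 in the first 4, beside 12.5%, 9.68%, 19.8% and 2.21% of all genes. RLE scaling gave 0 for MOC against MEC, and upper quartile scaling 0 there and in the interaction. Fitting only the compared groups gave 5 for MOC against MEC. The number series gave 0, 3, 3, 3 and 0, beside 1.21%, 6.75%, 5.24%, 7.97% and 0.185% of all genes. The cardiomyocyte covariate gave 13, 0 and 7 in the first 3 and 0 in the interaction, beside 14.9%, 0.0518%, 13.7% and 0.741% of genes. The scar covariate gave 0, 3 and 0 for MOC against MEC, MOS against MOC and the interaction, beside 0%, 1.69% and 0.23% of genes. Leaving out the 3 libraries high in fat cell genes gave 10, 2, 13, 1 and 0. The shares of all genes were then 11.6%, 5.76%, 17.3%, 1% and 0.396%. Leaving out 1 library at a time gave ranges of 3 to 13, 0 to 9, 2 to 8, 0 to 1 and 0 to 2. The counts of 13, 9 and 8 came without MOS replicate 2, beside 14.2%, 21.3% and 13.8% of all genes. The cause was not tested.

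Over all results and settings 2821 values were counted as the same, 96 lost a call, 75 gained one and 50 were counted as moved. None of the called values changed sign. Values without a call could change sign. Actn2 in MOC against MEC was 0.076 in log2 with all libraries and -0.071 without the 3 libraries high in fat cell genes. Flnc, Synpo and Xirp1 in MES against MEC kept their calls in 33 of 34 alternatives. Myl7, at a median of 0.0768 CPM, was left out by the expression filter with all libraries. It was tested without the filter, with a minimum mean of 1 CPM, and in the fits without MOS replicates 1, 3, 4 or 5. The scar and cardiomyocyte covariates are computed from the same libraries and can take up an effect of the vector or of swimming.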
